A study of Callithrix jacchus with 3 samples.

Results

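Pseudogenes are copies of genes that an annotation does not count as protein-coding. Many arise when a messenger RNA is reverse transcribed and inserted elsewhere in the genome, which leaves a short copy without introns, and others arise by duplication of a gene. A copy can still be transcribed, from a promoter of its own or within the transcript of a gene around it, and some retrocopies are read in germ cells of the testis. Transcripts of pseudogenes are also among the known sources of piRNAs, the small RNAs bound by PIWI proteins in the male germline. Because a copy resembles its parent gene, sequencing reads can be hard to assign to one or the other.

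The pseudogene entries described here are all rows of an RNA-seq table of marmoset testis (Callithrix jacchus, a small South American primate) that carry the word pseudogene in the annotation column. They number 903 of 18365 entries (4.92%), beside 16739 protein_coding entries. Each entry is 1 transcript with 1 value, in RPKM (read counts scaled by transcript length and by the size of the library), which allows levels of entries of different length to be compared. The labels describe wild-type adult testis from animals aged 41 and 51 months, with 2 replicates, and the table holds 1 column for both. The values thus carry no replicate error and no p-value, and animals or ages could not be compared. Only entries above 0 are listed, so an unlisted pseudogene is not shown to be silent. How reads that match several places were assigned is not given in the sources used here, so the level of any single copy that closely resembles its parent is uncertain. In whole tissue, fewer cells of a type and less RNA per cell cannot be told apart. The tissue label was checked on marker lists: 5 of 6 spermatid genes were found, from 49.9 to 7177 RPKM (PRM1), and AKAP4 had no entry. Of the spermatocyte genes 2 of 4 were found, at 16.8 and 49.9 RPKM, with no entry for SYCP3 and PIWIL1, and of the spermatogonial genes 3 of 4, at 0.290 to 0.810 RPKM. Of the Leydig cell genes INSL3 was at 404 RPKM and STAR at 4.91 RPKM, and CYP17A1 and HSD3B2 had no entry. Of the Sertoli cell genes 3 of 4 were found, at 0.148 to 68.0 RPKM, without SOX9. Of the peritubular cell genes ACTA2 was at 19.4 RPKM, and MYH11 had no entry. Neither of 2 liver genes and 1 of 3 blood genes (HBB, 38.1 RPKM) had an entry, and since testis markers were missing too, a missing entry does not show that a gene is silent.

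Pseudogene entries were mostly low, with a long upper tail. Their median was 0.568 RPKM, the middle 50% of entries lay between 0.132 and 3.15 RPKM, and the range ran from 0.00395 to 433 RPKM. Of the 903 entries, 370 (41%) were at 1 RPKM or more, against 59.8% of all entries and 60.6% of protein_coding entries. The protein_coding median was 1.80 RPKM, 3.17-fold above that of pseudogene entries. The distance from all protein_coding entries was smaller at the top: 111 pseudogene entries (12.3%) reached 10 RPKM, against 16.4% of protein_coding entries, and 21 (2.33%) reached 50 RPKM, against 2.42%. At 5 RPKM the share was 19.2% (173 pseudogene entries), against 29.5% of all and 29.3% of protein_coding entries, and at 0.1 RPKM it was 78.7% (711 pseudogene entries), against 87.8% and 87.9%. At the low end, 192 pseudogene entries (21.3%) were under 0.1 RPKM, against 12.1% of protein_coding entries. Entries under 0.1 RPKM were pseudogene entries in 8.57% of cases, those of 1 to 10 RPKM in 3.30% and those of 50 RPKM or more in 3.45%. At the limit of 1 RPKM itself, the last entry above it was ENSCJAT00000054364 at 1.01 RPKM and the first below it was ENSCJAT00000029526 at 0.995 RPKM.

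Pseudogene entries were also short. Their spans, counted from start to end with both ends included, ran from 128 to 5074 bases with a median of 824, while protein_coding spans, which hold introns, had a median of 22510 bases. Among the 3355 protein_coding entries within the same range of spans, a comparison chosen after the values were seen, the median was 0.903 RPKM and 48.4% reached 1 RPKM, with 80.9% at 0.1 RPKM or more and 26% at 5 RPKM or more. At the top these shorter protein_coding entries stood above the pseudogene entries, with 16.6% against 12.3% at 10 RPKM or more and 4.11% against 2.33% at 50 RPKM or more. Those shorter protein_coding entries lay between pseudogene entries and all protein_coding entries at 1 RPKM. The shortest pseudogene entry was ENSCJAT00000060303, with 128 bases and 25.6 RPKM, and the longest was ENSCJAT00000032430, with 5074 bases and 1.79 RPKM. Across the 903 entries, RPKM and span were nearly unrelated (Spearman's rho -0.07, a description over entries of 1 table). The 227 shortest entries, up to 541 bases, had a median of 0.775 RPKM, and the 225 longest, from 1217 bases, had 0.820 RPKM. Those of middle length were lower, with 0.437 RPKM for the 225 entries of 542 to 824 bases and 0.333 RPKM for the 226 entries of 827 to 1215 bases.

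**Figure D1:**
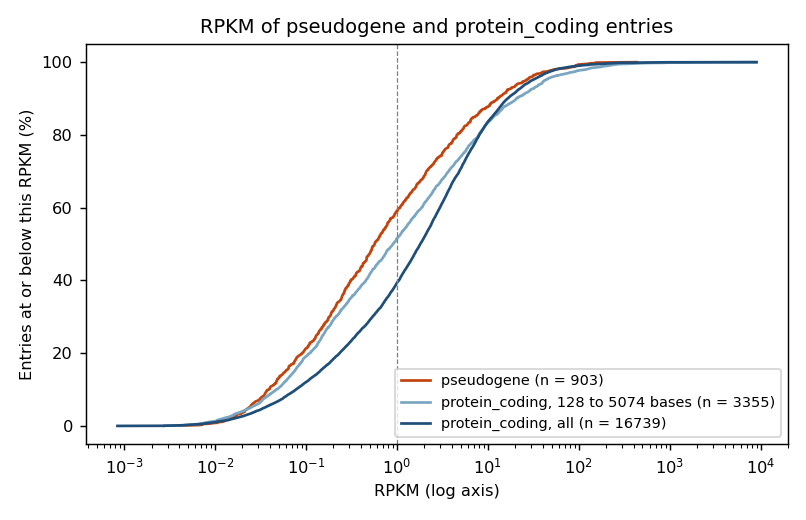
Cumulative share of entries (vertical axis, percent) at or below each RPKM (horizontal axis, log scale) for the 903 pseudogene entries, the 3355 protein_coding entries with spans of 128 to 5074 bases and all 16739 protein_coding entries. The dashed line marks 1 RPKM, at or above which 41%, 48.4% and 60.6% of entries lay. At 50 RPKM the pseudogene curve and that of all protein_coding entries nearly meet (2.33% and 2.42% at or above), while the curve of short protein_coding entries stays apart (4.11%).

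The gap between pseudogene and protein_coding entries depended on the kind of gene identifier in the table. Of the pseudogene entries, 694 (76.9%) carried an Ensembl gene identifier and 209 (23.1%) an identifier of the form PR0009 with a number, whose meaning is not given in the sources used here. Protein_coding entries had the reverse mix, with 15.9% Ensembl and 84.1% PR0009 identifiers. Within Ensembl identifiers the pseudogene entries were the higher group, with a median of 0.422 RPKM and 34.9% at 1 RPKM or more, against 0.223 RPKM and 27.1% for protein_coding entries. Within PR0009 identifiers the pseudogene median was 1.996 RPKM, with 61.2% at 1 RPKM or more, against 2.34 RPKM and 67%. The lower level of pseudogene entries as a whole therefore went with their identifiers, and within a kind of identifier it was small or turned round. The same order held among protein_coding entries of pseudogene span, with 0.292 RPKM for Ensembl and 2.27 RPKM for PR0009 identifiers. Whether the identifiers mark a step of the authors' assembly or a difference between the genes was not tested.

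**Figure D2:**
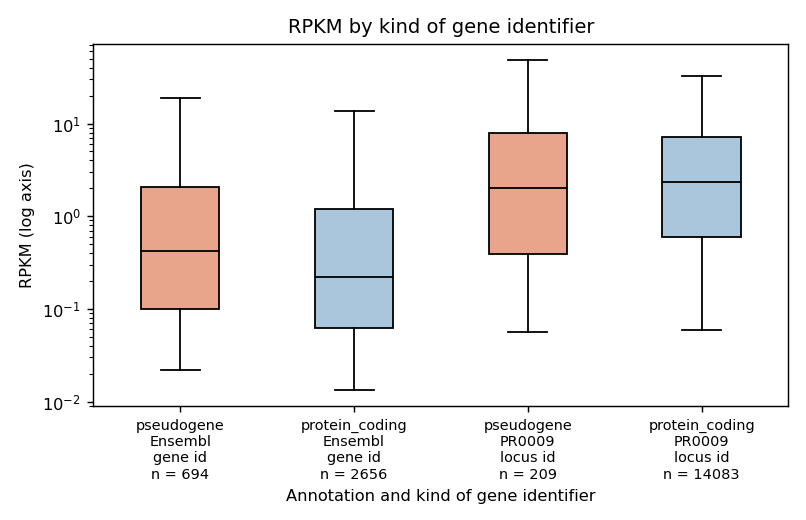
RPKM (vertical axis, log scale) of pseudogene and protein_coding entries by kind of gene identifier; boxes span the middle 50% with the median as a line, and whiskers reach the 5th and 95th percentiles. Pseudogene entries lie above protein_coding ones with Ensembl identifiers (medians of 0.422 and 0.223 RPKM) and slightly below them with PR0009 identifiers (1.996 and 2.34 RPKM).

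No pseudogene entry had a common name in the table, against 1303 unnamed of 16739 protein_coding entries. By Ensembl gene identifier, 23 of the 903 entries matched a symbol, and 880 entries stayed without one. None of the 23 symbols fell into the 10 fixed classes of frequently copied gene families, which included ribosomal proteins, glycolytic enzymes, chaperones, tubulins and histones. With 880 entries unnamed, this count says nothing about how many of the entries are copies of such genes. The RefSeq gene table, of assembly calJac240_pri, lists all 23 symbols as protein-coding genes. The table's pseudogene label therefore covered identifiers that another gene table pairs with the symbols of protein-coding genes.

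The 23 entries with a symbol were low, with 1 of them at 1 RPKM or more. That one was CKS1B, a small subunit that binds cyclin-dependent kinases, at 31.8 RPKM over 233 bases of chr10:67502276-67502508. A separate protein_coding entry of the same symbol on chromosome 18, spanning 5917 bases, was at 7.50 RPKM, 4.23-fold below the pseudogene entry. A further 3 symbols also had a protein_coding entry on another chromosome, and there the order was the opposite. CACYBP, a calcyclin-binding protein, was at 0.268 RPKM in its pseudogene entry and at 16.5 RPKM in its highest protein_coding entry. BLOC1S5, a subunit of the complex that forms lysosome-related organelles, was at 0.247 and 5.70 RPKM, and SPRY2, an inhibitor of growth factor signalling, at 0.0108 and 1.09 RPKM.

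The remaining 19 symbols had no protein_coding entry, so the pseudogene entry was the only one of that symbol in the table. They included genes whose coding sequence is known to lie in a single exon. FOXC2, a forkhead transcription factor of vessel and kidney development, was at 0.0616 RPKM. FZD2, a Wnt receptor, was at 0.190 RPKM, and IRS4, an insulin receptor substrate, at 0.0372 RPKM. Also low were the potassium channel gene KCNJ4 at 0.121 RPKM, the serotonin receptor gene HTR1F at 0.0468 RPKM and the tight junction gene CLDN8 at 0.0211 RPKM. The entry matched to ATP6V1E2, which encodes a proton pump subunit known from testis, was at 0.405 RPKM. It lay on the X chromosome between GRIPAP1 and TFE3, where RefSeq lists 0 named protein-coding genes, so its value is not shown to be the level of that gene. The highest of these 19 were MESP1, a mesoderm transcription factor, at 0.969 RPKM and FAM43A at 0.649 RPKM. SNRPD2, which encodes a core protein of spliceosomal particles needed in every cell, was at 0.0743 RPKM over 356 bases of chromosome 14. Whether this or any other of the 19 entries is the gene or a copy cannot be told from its symbol.

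The highest entries stood far above the rest. The 10 highest held 28.8% of the summed RPKM of all pseudogene entries and the 20 highest held 42.7%. The leader was ENSCJAT00000041445, with 433 RPKM over 614 bases at chr14:11594030-11594643 on the minus strand, which alone made up 8.35% of the sum and ranked 101st of all 18365 entries. It stood in a gap between genes: the nearest protein_coding entry, of the sialyltransferase gene ST6GAL2, lay 61688 bases away and was at 0.143 RPKM. The entry next in level, ENSCJAT00000001185 (155 RPKM, 446 bases, chr15:79971462-79971907), was more isolated still, with LSAMP, a neuronal adhesion gene at 1.12 RPKM, 780185 bases away. For both, the nearest protein_coding entry was thus more than 100 times lower.

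Of the 20 highest entries, 16 lay outside every protein_coding span, 2 lay inside one on the same strand and 2 inside one on the opposite strand. Among all 903 pseudogene entries, 81.9% lay outside, 12.7% inside on the same and 5.76% inside on the opposite strand. Of the 20, 10 were on the plus strand, as were 51.9% of all 903. The median span of all 903 was 824 bases, and 14 of the 20 spanned under 1000 bases. On chromosome 7, which held 42 of all 903 entries, there were 4 of the 20. Protein_coding entries containing or nearest to them were listed for 18 of the 20, and 17 of the 18 pseudogene entries were higher than that entry. The 20 were chosen for high RPKM, and 2.42% of all protein_coding entries reached 50 RPKM, so this count was largely set by the choice. In 8 of the 18 cases the containing or nearest entry was under 1 RPKM. Of all protein_coding entries 60.6% were at 1 RPKM or more and the rest under it, so this count is not shown to be unusual. The 1 pseudogene entry of the 18 that was lower was ENSCJAT00000021350, a span of 130 bases at chr7:36029438-36029567 with 127 RPKM. It began 445 bases beyond the 5′ end of SSU72, which encodes a phosphatase of RNA polymerase II, ran on the other strand and lay below that gene's 195 RPKM.

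The other entries over 100 RPKM were ENSCJAT00000043613 (154 RPKM, chr16:11172861-11173176), ENSCJAT00000058092 (131 RPKM, chr3:184622988-184623744) and ENSCJAT00000065603 (112 RPKM, chr10:76831446-76831733). The first of them lay inside NSMAF on the opposite strand. The one on chromosome 3 lay 12487 bases from BLOC1S4 (3.08 RPKM) and the one on chromosome 10 lay 6313 bases beyond the 3′ end of the prostaglandin receptor gene PTGDR (0.0183 RPKM). Both neighbours were on the same strand as the pseudogene entry and were far lower.

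Between 50 and 100 RPKM there were 15 entries, and they spread over many chromosomes. ENSCJAT00000007548 on chromosome 13 was at 97.9 RPKM and ENSCJAT00000043491, on an unplaced scaffold with no protein_coding entry, at 97.4 RPKM. ENSCJAT00000032389 on chromosome 2 was at 91.9 RPKM, ENSCJAT00000043948 on chromosome 12 at 91.9 RPKM, ENSCJAT00000052446 on chromosome 1 at 91.4 RPKM and ENSCJAT00000033886 on chromosome 8 at 90.1 RPKM. Those on chromosomes 2, 1 and 8 lay inside genes and are described with the other contained entries. ENSCJAT00000004963 on chromosome 4 was at 84.5 RPKM, ENSCJAT00000016179 on chromosome 7 at 79.0 RPKM, ENSCJAT00000003539 on the same chromosome at 76.1 RPKM and ENSCJAT00000008433, on a scaffold assigned to chromosome 2, at 71.8 RPKM. The lowest of the 20 highest entries were ENSCJAT00000021041 (64.6 RPKM, chromosome 7), ENSCJAT00000025522 (57.2 RPKM, chromosome 6), ENSCJAT00000022086 (53.3 RPKM, chromosome 1) and ENSCJAT00000043749 (52.0 RPKM, chromosome 2). The last of the 15 was ENSCJAT00000001791 on chromosome 8, at 50.2 RPKM. Genes beside these entries ranged widely in level and were lower than the entry near them. AGBL1, a carboxypeptidase gene 5194 bases from the entry on chromosome 6, was at 0.396 RPKM, and CSF3R, a growth factor receptor gene of blood cells 5598 bases from ENSCJAT00000003539, was at 0.0722 RPKM. SPEN, a gene of transcriptional repression 5762 bases from ENSCJAT00000016179, was at 8.64 RPKM, and an unnamed gene 5405 bases from ENSCJAT00000021041 was at 3.86 RPKM. The hormone gene RLN2, at 5.23 RPKM, lay 34095 bases from ENSCJAT00000022086.

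**Figure D3:**
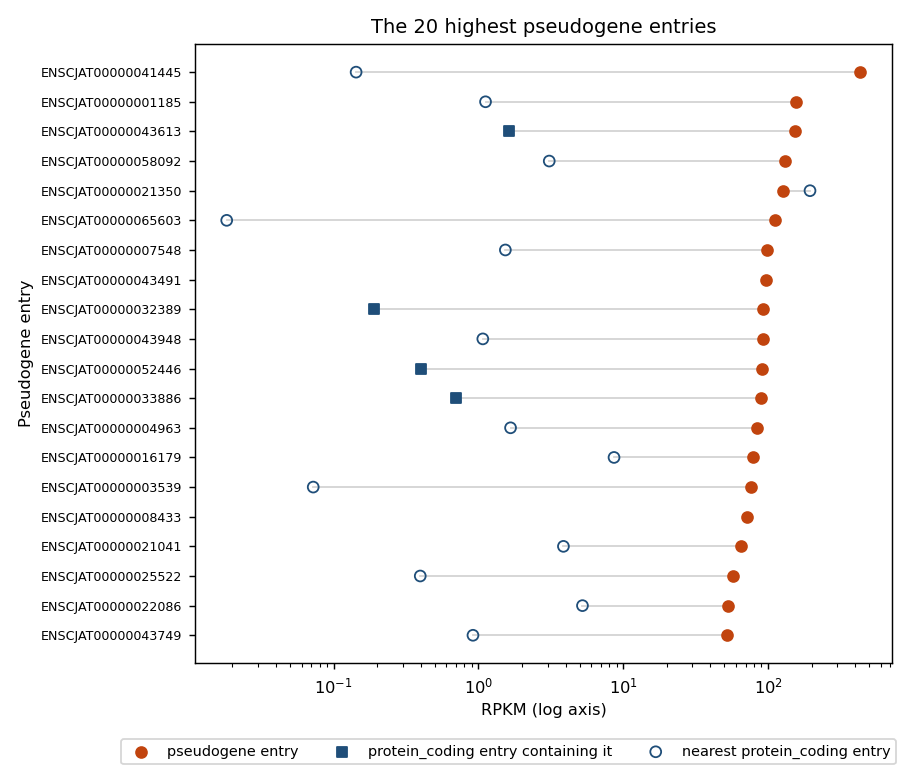
RPKM (horizontal axis, log scale) of the 20 highest pseudogene entries (filled circles, by transcript identifier) and of the protein_coding entry that contains each (squares) or lies nearest to it (open circles). In 17 of the 18 pairs the pseudogene entry is the higher one, which the choice of entries by high RPKM favours. On scaffolds, 2 entries have no protein_coding entry.

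The 5 lowest entries were also single transcripts between genes. ENSCJAT00000043156 on chromosome 11 was at 0.00395 RPKM, ENSCJAT00000036395 on chromosome 9 at 0.00643 RPKM and ENSCJAT00000017187 on chromosome 21 at 0.00721 RPKM. ENSCJAT00000043514 on chromosome 1 was at 0.00735 RPKM, 10505 bases from the olfactory receptor gene OR13C3 (0.0219 RPKM), and ENSCJAT00000006694 on chromosome 3 was at 0.00756 RPKM. All 5 were longer than the median pseudogene entry, with spans of 1040 to 1973 bases.

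Overlap with protein_coding entries was always complete containment. In all, 163 pseudogene entries (18.1%) shared bases with a protein_coding entry, and each of them lay wholly inside it; none overlapped one in part. By strand, 115 lay inside a protein_coding entry of the same strand and 52 inside one of the opposite strand, and 4 of these counted under both. No pseudogene entry overlapped another, or an entry of any other annotation. Containing spans were long, with medians of 112622 bases on the same and 127561 bases on the opposite strand. Spans include introns, and the table gives no exons, so whether a contained entry lay in an intron or an exon is not known.

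Other annotations gave other counts by strand, set side by side here without a test. Counting containing entries of another locus identifier, 102 pseudogene entries were on the same and 52 on the opposite strand, and 150 of 903 (16.6%) were contained. Of the protein_coding entries of the same span range, 10.3% were contained, 203 on the opposite and 155 on the same strand, and 22 of them overlapped a gene only in part. Transposon entries were contained on the opposite strand in 16 cases and on the same strand in 0, whereas snoRNA entries, which are known to be cut from introns of host genes, were contained on the same strand in 77 cases and on the opposite in 5. The pseudogene entries, with more on the same strand but many on the opposite, lay between transposon and snoRNA entries. As the table lists only entries above 0, these counts are of detected entries.

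Entries inside genes on the opposite strand had the highest median of the 3 positions, and those inside on the same strand were close to those outside. The 740 entries outside protein_coding spans had a median of 0.532 RPKM, with 40.7% at 1 RPKM or more. Those inside on the same strand had a median of 0.597 RPKM and 38.3%, and those inside on the opposite strand 1.40 RPKM and 53.8%. Differences of this size between sets of entries cannot be set against replicates here. Kinds of gene identifier were not separated by position, and they alone went with pseudogene medians of 0.422 RPKM (Ensembl) and 1.996 RPKM (PR0009). The part of the kind of identifier in these differences by position was not tested.

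Most entries on the same strand were lower than the gene around them. Among the 115, 87 were at or below their containing entry (the highest, where several contained it), 48 of them under 0.1 times its level, and 28 (24.3%) were above it. Among the 52 on the opposite strand, 20 (38.5%) were above the containing entry and 16 were under 0.1 times its level. Median containing levels were 3.83 RPKM on the same and 2.15 RPKM on the opposite strand, and 75.7% and 73.1% of the containing entries were at 1 RPKM or more. Levels of pseudogene and containing entry were weakly related on the same strand (rho 0.15, n = 115) and not on the opposite (rho -0.07, n = 52), as descriptions over entries of 1 table. Reads of unspliced host transcripts could be counted on a contained entry of the same strand, and their part in these levels was not tested.

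**Figure D4:**
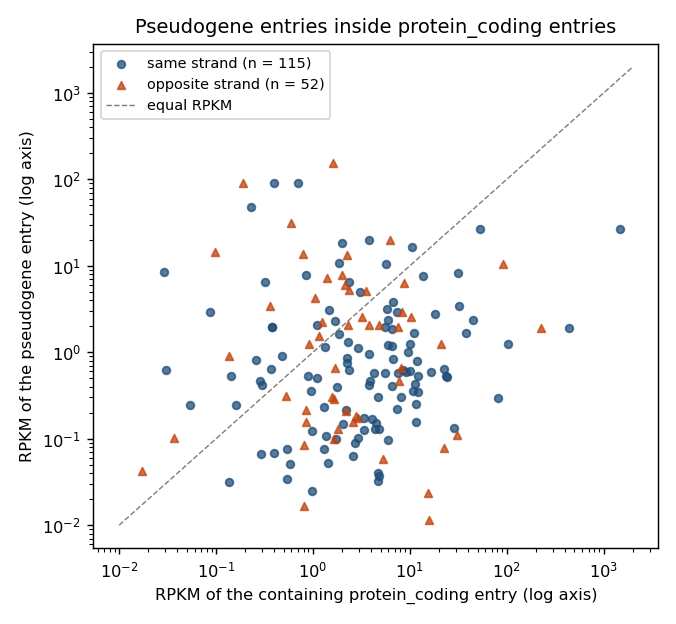
RPKM of contained pseudogene entries (vertical axis, log scale) against the protein_coding entry containing them (horizontal axis, log scale), with 115 pairs on the same strand (circles) and 52 on the opposite strand (triangles). Points above the dashed line of equal RPKM are the 28 and 20 entries higher than their gene, among them 7 and 5 that are over 10 times higher.

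On the same strand, the 2 highest contained entries lay in genes with almost no signal. ENSCJAT00000052446 (91.4 RPKM, 1011 bases, chr1:144845018-144846028) lay inside GRIN3A, a subunit gene of the NMDA glutamate receptor, which was at 0.400 RPKM. ENSCJAT00000033886 (90.1 RPKM, 1449 bases, chr8:123567255-123568703) lay inside CADPS2, a gene of vesicle secretion, at 0.696 RPKM. These pseudogene entries were 228-fold and 129.5-fold higher than the entries around them.

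Others on the same strand lay in genes with a signal of their own. ENSCJAT00000043971, with 308 bases at chr12:15859886-15860193 and 26.6 RPKM, lay inside the protamine entry PRM2_CALJA at 1484 RPKM. Protamines replace histones in sperm chromatin, and this entry was the only one of the 10 highest on this strand at under 0.1 times its host. ENSCJAT00000002925 was at 26.6 RPKM inside the clathrin heavy chain gene CLTC at 52.7 RPKM. ENSCJAT00000040019 was at 18.2 RPKM inside GPR107 at 1.98 RPKM, and ENSCJAT00000026035 at 16.4 RPKM inside ZMAT3, a target of p53, at 10.6 RPKM. The last of the 10 were ENSCJAT00000027357 at 10.8 RPKM inside NF1, a Ras regulator at 1.86 RPKM, and ENSCJAT00000065012 at 10.5 RPKM inside KPNA4, a nuclear import gene. The last of these ended 5 bases before its KPNA4 entry did, shared its locus identifier, and was higher than that entry at 5.64 RPKM.

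On the opposite strand, ENSCJAT00000043613 (154 RPKM, 316 bases) was 94.8-fold higher than NSMAF, an adaptor gene of sphingomyelinase signalling at 1.62 RPKM. ENSCJAT00000032389 (91.9 RPKM, 311 bases, chr2:134750303-134750613) lay in an unnamed gene at 0.189 RPKM. ENSCJAT00000057066 (31.2 RPKM) lay in the entry B0VX74_CALJA at 0.600 RPKM. Of the 10 highest on this strand, 9 exceeded the gene that contains them, against 20 (38.5%) of all 52. Choosing the 10 by their level favours the higher count. Those of 10 to 20 RPKM lay in AGMAT, an arginine metabolism gene (19.9 against 6.29 RPKM), the kinase gene ALPK1 (14.4 against 0.0977 RPKM), EML5 (13.6 against 0.792 RPKM) and CDC25C, a phosphatase gene of entry into division (13.3 against 2.25 RPKM). The exception was ENSCJAT00000030845, at 10.5 RPKM inside B0KWH6_CALJA at 91.7 RPKM. ENSCJAT00000000045 was at 7.89 RPKM inside the zinc finger gene ZNF547 (1.98 RPKM), and ENSCJAT00000040291 at 7.26 RPKM inside ESCO1, an acetyltransferase gene of cohesin (1.41 RPKM).

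The highest containing entries mostly held low pseudogene entries. After PRM2_CALJA, the highest hosts, named after their values were seen, were LOC100404008 at 440 RPKM on the same and LOC100395785 at 224 RPKM on the opposite strand of 1 pseudogene entry, ENSCJAT00000060381, which was itself at 1.93 RPKM. PSMF1, a proteasome inhibitor gene, at 104 RPKM, contained an entry of 1.23 RPKM on the same strand. STK17A, a kinase gene at 81.0 RPKM, contained one of 0.296 RPKM. On the opposite strand DPY19L2, a gene needed for the sperm acrosome, was at 30.5 RPKM around an entry of 0.111 RPKM.

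Containing genes rarely held more than 1 pseudogene entry: of 161 containing entries taken as the highest for a pseudogene entry and strand, 6 held 2. One of these was CAGE1, a testis antigen gene at 12.1 RPKM, with pseudogene entries at 0.344 and 0.529 RPKM, and another was the retinoblastoma gene RB1 at 1.63 RPKM, with entries at 0.0991 and 0.285 RPKM.

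Neighbouring genes in RefSeq were looked up for the contained entries, without using coordinates across assemblies and after the levels had been seen. Of 143 contained entries whose host symbol RefSeq lists, 10 lay in a host that also holds, in RefSeq, a named protein-coding gene without any entry in the table. By strand these were 6 of 104 on the same and 4 of 41 on the opposite strand. The share of all protein_coding entries that hold such a gene was not counted, so 10 is not shown to be more than usual. Both entries of about 90 RPKM on the same strand were among them. GRIN3A holds PPP3R2, a calcineurin subunit gene known from testis, and CADPS2 holds RNF148, a RING finger gene. NF1 holds OMG, a myelin glycoprotein gene. The rest of the 10 were all under 1 RPKM, in hosts that hold AMIGO3, LPAR6, REX1BD, GPR21, PABIR1 or HMGB4. Of these genes HMGB4, a chromatin gene known from the male germline, is held by CSMD2, around ENSCJAT00000002539 at 0.421 RPKM. Outside genes, ENSCJAT00000004963 (84.5 RPKM, 2337 bases, chr4:32378725-32381061) lay between LSM2 and HSPA1B, and RefSeq lists there 1 named gene without an entry, HSPA1L, a heat shock gene known from testis. Such genes also lay beside higher entries, with 4 at ENSCJAT00000058092 (131 RPKM, MRFAP1 among them) and 2 at ENSCJAT00000021350 (127 RPKM, FNDC10 and MIB2). At ENSCJAT00000043948 (91.9 RPKM) there were 0. The share of entries outside genes beside such a gene was not counted, so HSPA1L is not shown to be unusual. Between the genes SNN and SOCS1, which flank the entry in PRM2_CALJA, RefSeq lists PRM3 and TNP2 among 5 named genes without an entry under those symbols, PRM2 itself included. Whether any of these entries is a gene named with it could not be tested from names and order alone.

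Some pseudogene entries shared a locus identifier with a protein_coding entry. There were 28 such entries of 23 loci, all on the strand of the gene, 13 inside a protein_coding entry of the locus and 15 outside. Their median was 1.998 RPKM, close to that of all PR0009 entries. ENSCJAT00000004963 shared the identifier of LSM2, an RNA-binding protein gene 7016 bases away at 12.4 RPKM, far below its own 84.5 RPKM. ENSCJAT00000015477 (12.3 RPKM) lay 142 bases from an entry of APTX, a DNA repair gene, at 0.658 RPKM, and ENSCJAT00000027604 (2.21 RPKM) lay 485 bases from LYPD1, a gene of nicotinic receptor regulation, at 1.72 RPKM. In 15 of the 28 cases the pseudogene entry was higher than the nearest entry of its locus.

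One locus identifier covered the clustered protocadherins of chromosome 2, adhesion genes of neurons whose variable parts are each coded in 1 long exon. It held 5 pseudogene entries on the plus strand, between 0.364 and 2.49 RPKM, and a further entry beside them carried another identifier. Of the 5, 2 lay in the same protein_coding entry: ENSCJAT00000035042 at 1.98 RPKM and ENSCJAT00000035055 at 1.97 RPKM, inside LOC100396356 at 0.381 RPKM. ENSCJAT00000055248 at 0.858 RPKM lay inside an entry of PCDHB2 at 2.25 RPKM, ENSCJAT00000058604 was the highest at 2.49 RPKM and ENSCJAT00000044001 the lowest at 0.364 RPKM. All 5 spanned 2490 to 3081 bases, well above the median span of 824, and 3 of them were higher than LOC100396356 by over 5 times.

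The 740 entries outside genes were mostly far from them, with a median of 39385 bases to the nearest protein_coding entry, and 77 were within 5000 bases. These 77 had a median of 0.820 RPKM, against 0.501 RPKM for the 598 farther away. Among the near ones, the 25 on the other strand before a gene's 5′ end had a median of 1.01 RPKM and the 21 on the same strand beyond a gene's 3′ end 1.08 RPKM. The 16 on the other strand beyond a 3′ end had 0.798 RPKM, and the 15 on the same strand before a 5′ end were lower, at 0.188 RPKM. These sets are small, kinds of gene identifier were not separated in them, and the differences were not tested. A further 65 lay on scaffolds without any protein_coding entry and had a median of 0.595 RPKM. Pseudogene entries were seldom neighbours of each other, with 33 entries in 15 runs of entries at most 10000 bases apart, of which 13 were pairs.

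By chromosome, pseudogene entries were most numerous on chromosome 1 with 88, chromosome 5 with 59 and chromosome 2 with 58. Per 100 protein_coding entries this was 7.61, 4.06 and 5.95 entries, and chromosome 22 had the fewest of the 22 chromosomes with 10 or more entries, at 2.64. On all 22 of these chromosomes the pseudogene median was below the protein_coding median. Kinds of gene identifier were not separated by chromosome, and 76.9% of pseudogene but 15.9% of protein_coding entries carried the Ensembl kind, which was lower in both classes. The pseudogene median ranged from 0.0653 RPKM on chromosome 21 (n = 11) to 1.35 RPKM on chromosome 17 (n = 20), against protein_coding medians of 1.83 and 2.36 RPKM. Chromosome 14 held the highest entry of all and yet had a median of 0.184 RPKM over 36 entries. On the X chromosome, whose genes are known to be silenced in meiosis, the 33 pseudogene entries had a median of 0.405 RPKM, near the protein_coding median there of 0.574 RPKM. The Y chromosome had 2 entries, at 2.41 and 0.252 RPKM.

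**Figure D5:**
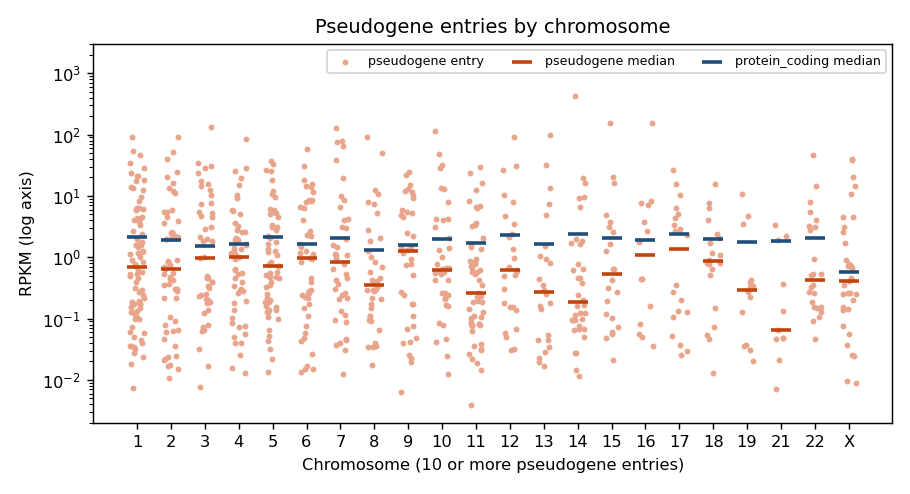
RPKM (vertical axis, log scale) of pseudogene entries (points) on the 22 chromosomes with 10 or more of them, with the pseudogene and protein_coding medians as bars. The pseudogene median is the lower bar on each chromosome, from 0.0653 RPKM on chromosome 21 to 1.35 RPKM on chromosome 17. Kinds of gene identifier are not separated.

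Scaffolds not built into a chromosome held 86 pseudogene entries, 9.52% of them, against 2.62% of protein_coding entries. In the middle of the range their levels were near those on chromosomes, with a median of 0.745 RPKM against 0.562 RPKM and 45.3% against 40.5% at 1 RPKM or more. Higher up, fewer entries on scaffolds reached 5 RPKM (10.5% against 20.1%) and 10 RPKM (5.81% against 13.0%). The share at 50 RPKM or more was 2.33% in both. Strand was balanced, with 469 entries (51.9%) on the plus and 434 on the minus strand.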

How the data were processed

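Per the labels, testis total RNA was sequenced by a directional method, so strand is kept. Tools listed in the submitters' processing notes are Cufflinks, TopHat and Bowtie, with no version. The deposited values are RPKM per transcript, per the file headers, in 1 column for the 2 labelled replicates. The genome build was not given in the sources used here, nor were filters or depth, and low values were not whole multiples of 1 read, so no depth was recovered. Coordinates are printed as deposited, unconverted.

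Pseudogene entries were taken by the annotation column. Overlap meant at least 1 shared base, and the containing entry of highest RPKM stood for its gene. The overlap code was tested on simulated intervals. LOC names became symbols through RefSeq (calJac240_pri, used for names and neighbours), and Ensembl identifiers through the Ensembl gene table.

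Named were the 20 highest and 5 lowest entries, those around 1 RPKM, the longest and shortest, the 10 highest contained entries per strand (2 of those on the same strand are not reported here), the 3 chromosomes with most entries, and others as stated. Members and lists were chosen with earlier results of these data known. Pseudogene sequences and small RNA reads on them were not analysed here. Values were computed in Python 3.11.15 with pandas 2.3.3, numpy 2.4.6 and scipy 1.17.1, and plotted with matplotlib 3.10.9.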

Additional observations from a re-analysis of the deposited data

How the results depend on the processing

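With 1 column of RPKM there is no replicate to leave out. No paired analysis was possible because the 2 labelled replicates share 1 column. The count of pseudogene entries above the limit was 370 at 1 RPKM, 711 at 0.1 RPKM and 173 at 5 RPKM. The median of 0.568 RPKM was 1.13 RPKM over entries of at least 0.1 RPKM and 4.50 RPKM over those of at least 1 RPKM, by construction. Without the single highest entry, the 10 highest held 24.2% of the sum instead of 28.8%. The correlation of RPKM with span was -0.07 over all entries and 0.0222 over those of at least 0.1 RPKM. Leaving out contained entries gave 301 entries at 1 RPKM and a median of 0.532 RPKM. Requiring 50% of the span left the 115 and 52 overlaps as they were, and hosts of at least 1 RPKM left 87 and 38. The median over the highest entry of each name was not run, as no entry is named; by identifier, an alternative added after seeing the data, it was 0.567 RPKM, and without scaffolds, added likewise, 0.562 RPKM. Against summed hosts, also added, 28 and 19 entries were higher.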
